A study of Mus musculus with 13 samples.

Results

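The 9 genes described here encode antigen presentation machinery. They are the MHC class II chains H2-Aa, H2-Ab1 and H2-Eb1, the class II chaperone Cd74, the class I heavy chains H2-K1 and H2-D1, the class I light chain B2m, and the immunoproteasome subunits Psmb8 and Psmb9. They were chosen by symbol, and all 9 were found among the 16204 genes of the deposited tables. Their levels were followed across 13 libraries of single epithelial cells of the mouse small intestine, in the 892 cells of 1248 that held at least 3000 transcripts.

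MHC class I molecules show peptides from inside the cell to CD8 T cells. Their heavy chains fold only with B2m, and the immunoproteasome cuts many of the peptides they carry. MHC class II molecules are dimers of an alpha and a beta chain that show peptides to CD4 T cells. They are best known from dendritic cells, macrophages and B cells, but the epithelium of the small intestine also makes them, and interferon gamma raises both kinds.

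The study followed the offspring of Lgr5+ stem cells over time, with a question on how the Paneth cell lineage matures. All libraries came from Lgr5-CreERT2 C57Bl6/J mice crossed to Rosa26LSL-YFP reporter mice. In these mice the Cre is made only in cells that express Lgr5 and works once tamoxifen is given, so that the cells marked then and their offspring carry YFP (traced cells). Single cells were measured with CEL-seq, which counts each transcript once at its 3′ end, so that no correction for gene length was needed. The groups were 5-day traced cells (5 libraries, 332 cells kept), 3-week traced CD24+ cells (1 library, 62 cells), 8-week traced CD24+ cells (3 libraries, 221 cells), traced cells of 8 weeks whose label names no CD24 gate (1 library, 80 cells) and 8-week non-traced CD24+ cells (2 libraries, 147 cells). One more 3-week library bears the non-traced CD24+ label and held 50 kept cells. Its cells carry a name with YFP and without CD24 in a combined table of the same study, so it entered no comparison of traced with non-traced cells. CD24 is a surface protein used as a gate. The labels do not say which libraries came from the same mouse. The p-values between groups of libraries measure the spread between these libraries, which may be technical in part. Those between classes of cells within libraries measure how the class differences vary between libraries, which may also be technical in part.

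Kept cells held 370384 to 1383151 transcripts per library, with a median of 5412 to 14458 per cell. The sex of the mice moved with time: Xist, the RNA of the inactive X chromosome, ranged up to 0.013 transcripts per 10000 at 5 days and lay at 0.81 to 1.7 in all other libraries, whereas the Y-linked gene Ddx3y was at 0.2 to 0.42 and at 0. Epithelial markers were at 54 or more per 10000 in every library, and myeloid and dendritic markers at 0.39 to 0.71. In the classes used below, 133 cells were left unnamed. Among them was a cluster of 42 cells, 97.6% of them from 5-day replicate 4. All levels below are transcripts per 10000 transcripts of a library or class.

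Except for B2m, on chromosome 2, the genes whose promoters are printed here lie together on chromosome 17. H2-Aa is at 34282744 to 34287823 and H2-Eb1 at 34305867 to 34316674, H2-K1 at 33996017 to 34000347 and H2-D1 at 35262730 to 35267499 (mm10). RefSeq promoters matched 7 of the 9 genes by symbol. The 180 bases before the start of transcription (GRCm38.p6) are shown for a pair of class II chains, whose levels followed each other most closely, and for the 3 class I chains. The gene places above are from another annotation, and the promoter printed for H2-D1 lies within the place given for that gene. Capitals mark 3 motifs, each searched on both strands: GATTGG, the core of the Y box, the CCAAT element of MHC promoters (CCAATC on the other strand); GGGATTCCC, of the kappa B type; and TTTCNNTTC, of the interferon response type.
H2-Aa, chr17:34287824-34288003, reverse strand: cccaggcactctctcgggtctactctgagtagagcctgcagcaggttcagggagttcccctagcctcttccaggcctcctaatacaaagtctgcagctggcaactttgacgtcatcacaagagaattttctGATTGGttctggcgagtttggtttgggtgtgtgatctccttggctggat
H2-Eb1, chr17:34305687-34305866, forward strand: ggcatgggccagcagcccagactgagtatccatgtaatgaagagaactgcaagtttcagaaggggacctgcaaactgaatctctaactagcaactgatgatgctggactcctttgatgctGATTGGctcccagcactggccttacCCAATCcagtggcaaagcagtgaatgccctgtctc
B2m, chr2:122147507-122147686, forward strand: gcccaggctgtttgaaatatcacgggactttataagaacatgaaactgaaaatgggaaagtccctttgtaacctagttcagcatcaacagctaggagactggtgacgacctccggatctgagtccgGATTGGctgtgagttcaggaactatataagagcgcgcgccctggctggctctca
H2-K1, chr17:34000348-34000527, reverse strand: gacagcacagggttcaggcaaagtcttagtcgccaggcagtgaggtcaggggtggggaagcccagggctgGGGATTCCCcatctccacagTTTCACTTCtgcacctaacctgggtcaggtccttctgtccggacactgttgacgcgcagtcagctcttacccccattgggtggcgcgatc
H2-D1, chr17:35262914-35263093, forward strand: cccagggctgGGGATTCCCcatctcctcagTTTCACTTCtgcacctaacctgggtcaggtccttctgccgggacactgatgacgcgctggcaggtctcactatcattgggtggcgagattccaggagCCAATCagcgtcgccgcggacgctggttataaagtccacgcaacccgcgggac

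GATTGG lay 49 to 44 bases before the start of H2-Aa and 54 to 49 bases before that of B2m. H2-Eb1 held it on both strands, and H2-D1 on the opposite strand. Psmb9 held it next to the start, and Psmb8 held none of the 3 motifs. H2-K1 held it only before another start in the table, not in the stretch printed. Over all starts, 6 of the 7 matched genes had it. The background took only the first start of each gene, and 13% of 27025 promoters of this length had it. H2-K1 would not count on that measure. GGGATTCCC was found in H2-K1 and H2-D1 and in 0.19% of promoters, and TTTCNNTTC in the same pair and in 4.4%. These are matches of letters, not measured binding.

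Across whole libraries, the sum of the class II genes was highest in traced cells at 8 weeks and lowest in the 3-week traced CD24+ library. The summed level of H2-Aa, H2-Ab1, H2-Eb1 and Cd74 was 10.5, 5.91, 8.3, 6.9 and 6.51 in the 5-day libraries (7.62 ± 1.8, SD, n = 5). It was 14.4, 16.2 and 13.6 in the 8-week traced CD24+ libraries (14.7 ± 1.3, n = 3) and 16.7 in the ungated 8-week library. In the 8-week non-traced CD24+ libraries it was 7.67 and 11.7, in the 3-week traced CD24+ library 2.58, and in the 3-week library with the non-traced CD24+ label 9.89. The sums of the 8-week traced libraries thus lay above those of all 5-day and all non-traced libraries, and the 3-week traced library below every other library. H2-Aa, H2-Ab1 and H2-Eb1 each separated these libraries in the same way, and Cd74 did not. The share of all genes that separate them so was not counted. Cd74 was at 3.13, 3.09 and 2.25 in the 8-week traced CD24+ libraries and at 3.2 in the ungated one, against 0.989 to 3.43 at 5 days, 1.72 and 2.48 in the non-traced CD24+ libraries and 0.345 in the 3-week traced library, so that its groups of 5 days and 8 weeks overlapped.

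The class I heavy chains had another order. H2-D1 was at 2.34 to 2.69 in the 5-day libraries (2.47 ± 0.15, n = 5), at 5.7, 7.69 and 6.77 in the 8-week traced CD24+ libraries, and at 10.5 and 9.95 in the 8-week non-traced CD24+ libraries. H2-K1 was at 4.51 to 5.29, at 7.68, 7.12 and 7.62, and at 9.31 and 9.22 in the same groups. For both heavy chains these 3 groups did not overlap, and the non-traced CD24+ libraries were the highest. The share of all genes without such overlap was not counted. B2m, the chain that both need, ranged from 6.99 in the 3-week traced CD24+ library to 12.7 in the ungated 8-week library. It did not separate these groups: it was at 7.39 to 10.7 at 5 days, 8.19 to 8.81 in the 8-week traced CD24+ libraries, and 8.57 and 9.88 in the non-traced ones. Psmb8 ranged from 1.4 to 3.59 and Psmb9 from 0.459 to 1.68, each with its highest level in the ungated 8-week library.

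**Figure D1:**
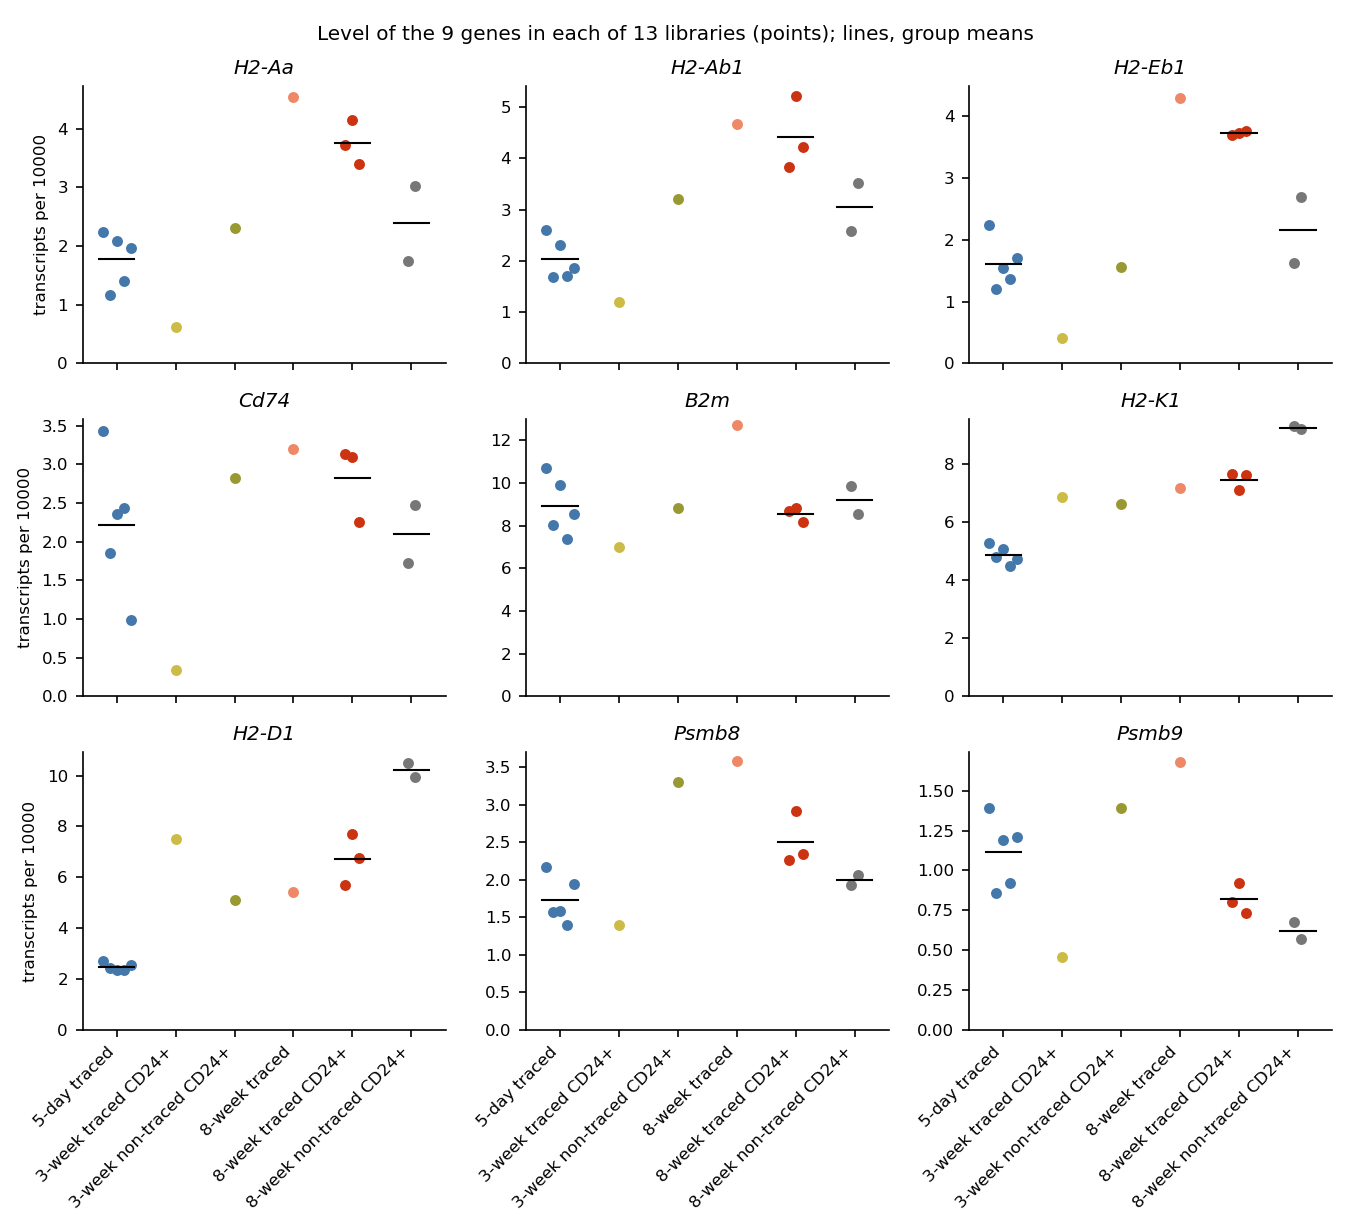
Levels of the 9 genes (transcripts per 10000, vertical axes, each with its own range) in each of the 13 libraries (points), by group, with lines at the group means. H2-Eb1 is at 3.7 to 3.77 in the 3 8-week traced CD24+ libraries and at 1.21 to 2.24 in the 5-day libraries, and H2-D1 is highest in the 2 non-traced 8-week libraries.

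The libraries held different cells, so the genes were next compared between classes of cells within libraries. Cells were clustered on a random part of their counts, without the 9 genes and without the other antigen presentation and interferon genes, and named by markers: 144 stem-like, 162 proliferating-like, 32 enterocyte-like, 74 Paneth-like, 99 goblet-like, 110 enteroendocrine-like and 138 tuft-like cells. The other part of the counts gave the levels. Enterocyte-like and stem-like cells had the most class II transcripts and tuft-like cells almost none. The summed class II level was 24.1 ± 7.6 in enterocyte-like (SD over libraries, n = 4), 19.8 ± 13 in stem-like (n = 9), 13.5 ± 8.8 in proliferating-like (n = 10), 8.4 ± 6.8 in goblet-like (n = 11), 7.36 ± 3.2 in enteroendocrine-like (n = 7), 4.53 ± 4.0 in Paneth-like (n = 8) and 0.781 ± 0.67 in tuft-like cells (n = 7). These SDs pool libraries of different times, and the order within libraries was as follows. Stem-like cells were above goblet-like cells in 8 of 8 libraries with both, above Paneth-like cells in 6 of 6, above enteroendocrine-like and tuft-like cells in 4 of 4 each, above proliferating-like cells in 9 of 9, and below enterocyte-like cells in 3 of 3. Goblet-like and enteroendocrine-like cells did not separate, with goblet-like cells higher in 4 of 6 libraries.

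**Figure D2:**
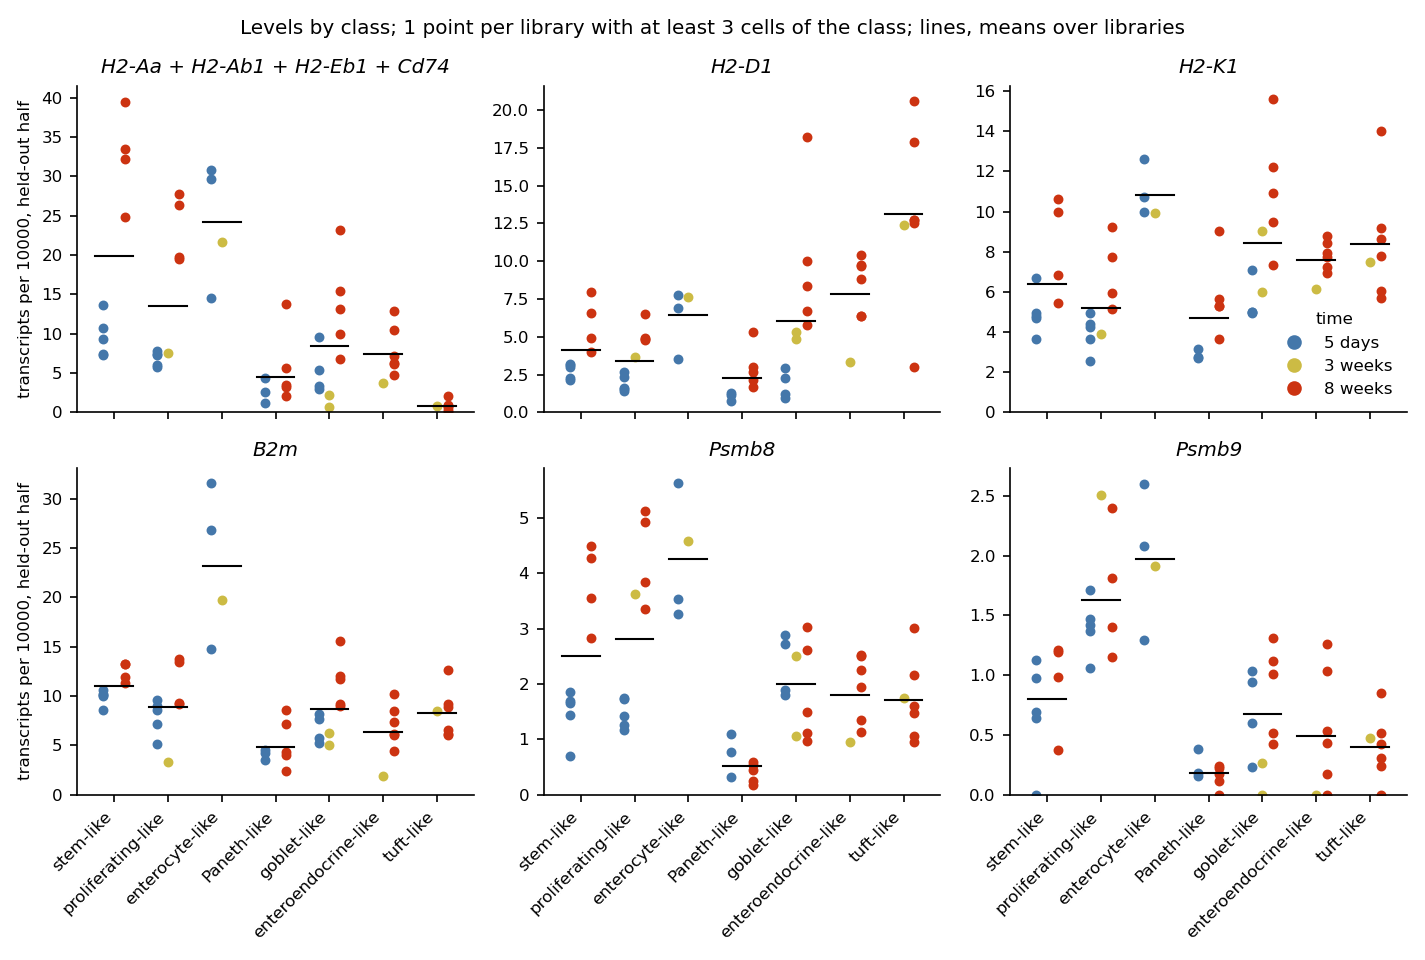
Levels (transcripts per 10000 of the counts not used for clustering) of the 4 class II genes together and of 5 class I genes, by class. Each point is 1 library with at least 3 cells of the class, coloured by time, and lines are means over libraries. Tuft-like cells have the lowest mean for class II and the highest mean for H2-D1.

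The single class II genes followed the sum in part. For each of them stem-like cells were above proliferating-like cells in 7 of 9 libraries. For H2-Ab1 they were above goblet-like cells in 6 of 8, and for H2-Eb1 and Cd74 above enterocyte-like cells in 1 of 3. In stem-like cells H2-Eb1, a class II beta chain, had a lowest level of 1.12, a median of 3.54 and a highest of 11.3 over 9 libraries, and in Paneth-like cells 0.385, 0.568 and 2.34 over 8. Cd74, the invariant chain that fills the class II groove until peptide is loaded, had 1.13, 3.92 and 7.27 in stem-like cells, against 0, 0.911 and 2.78 in Paneth-like cells. The classes overlapped when libraries were pooled, but within every library with both classes H2-Aa, H2-Ab1, H2-Eb1 and Cd74 were each higher in stem-like than in Paneth-like cells.

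H2-D1 had another order, with the highest mean in tuft-like cells. It was at 13.1 ± 5.5 in tuft-like cells (n = 7), 7.81 ± 2.6 in enteroendocrine-like (n = 7), 6.46 ± 2.0 in enterocyte-like (n = 4), 6.05 ± 4.9 in goblet-like (n = 11), 4.13 ± 2.0 in stem-like (n = 9), 3.42 ± 1.8 in proliferating-like (n = 10) and 2.25 ± 1.5 in Paneth-like cells (n = 8). Tuft-like cells were above enteroendocrine-like cells in 6 of 7 libraries, by 5.3 ± 5.5, and proliferating-like above Paneth-like cells in 6 of 6. Enterocyte-like cells shared no library of at least 3 cells each with enteroendocrine-like or tuft-like cells, and these pairs were not ordered. Stem-like cells were above tuft-like cells in 1 of 4 libraries. The means pool times: no 5-day library held tuft-like cells, and stem-like cells were at 2.74 at 5 days and 5.86 at 8 weeks. The means of H2-D1 and of the class II genes thus had opposite extremes in tuft-like cells. Beside 2 classes the direction of the levels was that of class II. Stem-like cells had more H2-D1 than Paneth-like cells in 6 of 6 libraries and less than enterocyte-like cells in 3 of 3. The edgeR quasi-likelihood test called the difference from enterocyte-like cells (log2 difference -1.1 ± 0.31, SE). It did not call that from Paneth-like cells (0.27 ± 0.25, Benjamini-Hochberg adjusted p = 0.42). Scaling by library totals, as in these levels, raised genes in general in stem-like against Paneth-like cells. The median log2 difference of all genes was 1.23 with library totals and 0.1 in the test. The same scaling enters every level of Paneth-like cells given here. Transcripts of H2-K1, H2-D1 and other class I heavy chains are alike in sequence, and the authors' counting could divide their reads, so the level of each heavy chain is uncertain. H2-K1 varied less, from 4.68 ± 2.1 in Paneth-like to 10.8 ± 1.3 in enterocyte-like cells, and goblet-like and tuft-like cells were level at 8.41 and 8.4. The edgeR test put H2-K1 at -0.31 ± 0.19 in stem-like against Paneth-like cells (adjusted p = 0.21). B2m stood out in enterocyte-like cells at 23.2 ± 7.4 (n = 4), against 4.84 ± 2.0 to 11 ± 1.5 in the other classes.

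The immunoproteasome subunits were lowest in Paneth-like cells. Psmb8 was at 0.519 ± 0.3 there (n = 8), against 1.72 ± 0.7 in tuft-like (n = 7) and 2.5 ± 1.3 in stem-like cells (n = 9), and tuft-like cells were above Paneth-like cells in 5 of 5 libraries. Psmb9 was at 0.184 ± 0.11 in Paneth-like cells and highest in enterocyte-like (1.97 ± 0.54, n = 4) and proliferating-like cells (1.63 ± 0.49, n = 10). It was lower in stem-like than in proliferating-like cells in 9 of 9 libraries, at 0.8 ± 0.41 against 1.63. The edgeR quasi-likelihood test did not call that difference (log2 difference -0.74 ± 0.28, SE, Benjamini-Hochberg adjusted p = 0.14).

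The share of cells with at least 1 transcript gave the same picture at equal depth. Cells were thinned to 3000 transcripts each, which scales by the total of a cell, as the levels above do. Any class II transcript was found in 91.7% of 144 stem-like cells (exact Clopper-Pearson 95% interval 85.9 to 95.6%), 54.1% of 74 Paneth-like cells (42.1 to 65.7%) and 23.2% of 138 tuft-like cells (16.4 to 31.1%). Without thinning the shares were 97.9%, 86.5% and 44.2%, at median depths of 7152, 18018 and 6957 transcripts. The share in tuft-like cells was the lowest of all classes. No background was measured apart from the classes, so these shares compare classes only. Of the single class II genes, Cd74 was found in 54.2% of thinned stem-like and 2.9% of thinned tuft-like cells. H2-D1 was found in 95.7% of thinned tuft-like cells (90.8 to 98.4%) and 63.2% of stem-like cells (54.8 to 71.1%). Psmb8 was found in 14.9% of thinned Paneth-like cells (7.66 to 25%) and 50.7% of stem-like cells (42.2 to 59.1%). The intervals cover counting error only.

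**Figure D3:**
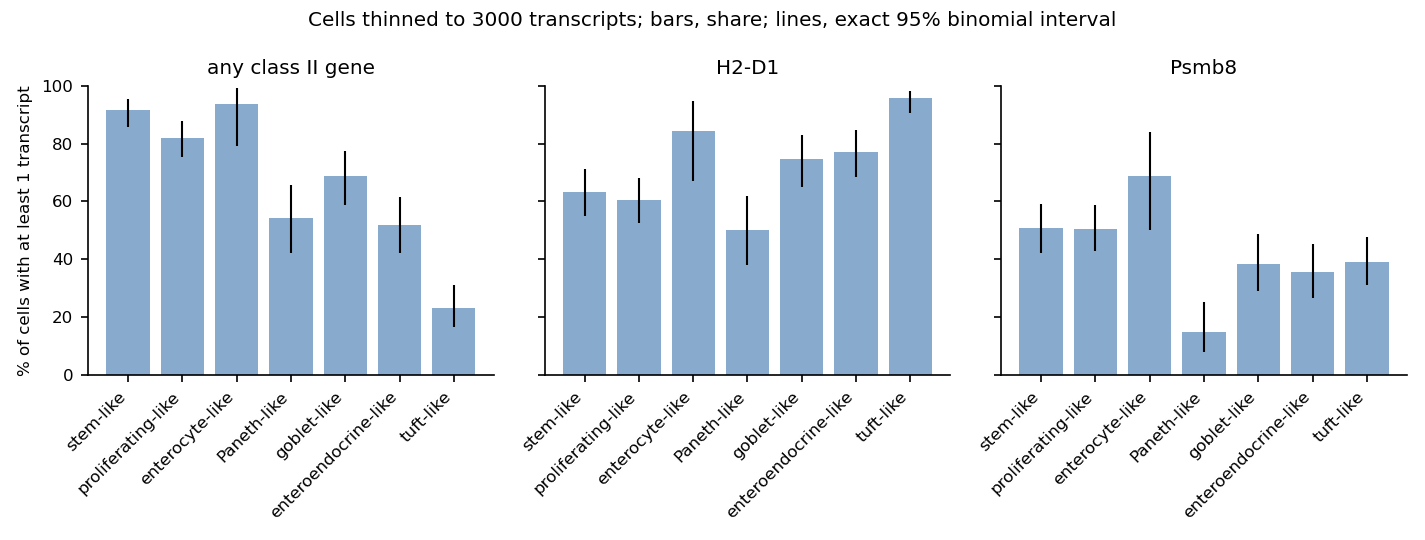
Share of cells (%, vertical axes) with at least 1 transcript of any class II gene, of H2-D1 and of Psmb8 after thinning each cell to 3000 transcripts, by class. Bars are shares over all libraries and lines are exact 95% binomial intervals. The class II share is 91.7% in stem-like and 23.2% in tuft-like cells, and the H2-D1 share is highest in tuft-like cells.

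Stem-like cells were then tested against the mean of the 4 secretory classes (Paneth-like, goblet-like, enteroendocrine-like and tuft-like), with the library as a block. All 4 class II genes were higher in stem-like cells. Some class II sums of tuft-like cells were at 0, which makes the size of this mean difference depend on the prior count, so sizes are given from a fit without tuft-like cells, added after the data were seen. There the log2 difference was 2.22 for H2-Eb1 (edgeR adjusted p = 6.1e-11), 1.66 for Cd74, 1.63 for H2-Aa and 1.16 for H2-Ab1. With all 4 classes B2m was 1.61-fold, Psmb8 1.81-fold and Psmb9 1.84-fold higher. The heavy chains did not pass, with a log2 difference of -0.03 ± 0.15 (SE) for H2-K1 and -0.24 ± 0.19 for H2-D1. H2-D1 passed as lower with classes by the share of marker transcripts (-0.53), at resolution 0.5 (-0.47) and with cells of at least 1500 transcripts (-0.42). In all, 7 of 9 genes were higher and none lower, and 37.6% of the 2612 genes tested were called in either direction (20.9% higher). The median log2 difference was 0.88 over the 9 genes and 0.03 over all genes. Of the genes called, 55.4% were higher, against 40.7% with RLE factors and 71% with library totals.

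The calls of the immunoproteasome subunits were less firm. Psmb9 passed narrowly, at 0.88 ± 0.34 (SE, adjusted p = 0.031, edgeR), and no longer passed without tuft-like cells (0.71, adjusted p = 0.095), 5-day replicate 1 (0.72, adjusted p = 0.11), 8-week traced CD24+ replicate 2 (0.75, 0.12) or replicate 3 (0.56, 0.25). Psmb8 no longer passed without the last of these (0.59, adjusted p = 0.052). The values were also computed at each time, and the difference between times was tested only against Paneth-like cells. With the 8-week libraries alone and without tuft-like cells H2-Eb1 had 2.31, Cd74 1.77 and H2-Aa 1.73, each called, while B2m (0.34, edgeR adjusted p = 0.19) was not. With the 5-day libraries alone H2-Eb1 had 1.30 (edgeR adjusted p = 0.037) and was the only gene of 8 tested that passed, while H2-Aa had 0.79 (adjusted p = 0.21) and Cd74 0.81 (0.13). No tuft-like or enteroendocrine-like sums of at least 3 cells existed at 5 days, so that fit compared stem-like with Paneth-like and goblet-like cells.

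Each secretory class was also compared on its own, from the same fit. Against tuft-like cells 7 of 9 genes were called, 6 higher and H2-D1 lower, with 41.3% of all genes called (22.4% higher, 19% lower). H2-D1 fell by 0.90 ± 0.23 on the log2 scale in stem-like against tuft-like cells (adjusted p = 0.00068, edgeR). Psmb8 among the higher genes (0.86) lost its call without any 1 of the 3 8-week traced CD24+ libraries (0.56 to 0.77). Tuft-like cells held 6 H2-Aa, 14 H2-Ab1, 15 H2-Eb1 and 7 Cd74 transcripts among 517026, and stem-like cells 348, 357, 373 and 287 among 653088. Some tuft-like sums were at 0, so the fitted log2 differences of 4.79 to 6.19 depend on the prior count. Against enteroendocrine-like cells 6 of 9 genes were higher (34.1% of all genes called, 18.4% higher), with H2-Eb1 at 2.62 ± 0.31. Psmb8 among them, at 0.71 ± 0.29 (edgeR adjusted p = 0.047), lost its call without tuft-like cells in the fit (0.54), 5-day replicate 1, 2, 4 or 5, the 3-week traced CD24+ library, any of the 8-week traced libraries or 8-week non-traced CD24+ replicate 2.

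Against Paneth-like cells 6 of 9 genes were higher (31% of all genes called, 14.3% higher): the 4 class II genes, Psmb8 and Psmb9. H2-Eb1 had a log2 difference of 2.30 ± 0.33 and Psmb8 of 1.36 ± 0.34 (edgeR adjusted p = 0.0012). Psmb9 (1.42) lost its call without tuft-like cells in the fit (1.19), 5-day replicate 1 (1.30) or 8-week traced CD24+ replicate 2 (1.37) or 3 (0.98). The scaling between classes mattered here: library totals alone put the median of all genes at 1.23 in place of 0.10, and the share of called genes that were higher at 90.7% in place of 46.1%. The class II genes stood above that shift too, at 2.64 to 3.57. Against goblet-like cells 4 of 9 genes were higher, the class II genes (26.9% of all genes called, 11.9% higher), from H2-Ab1 at 0.82 ± 0.23 to H2-Eb1 at 1.85 ± 0.27.

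**Figure D4:**
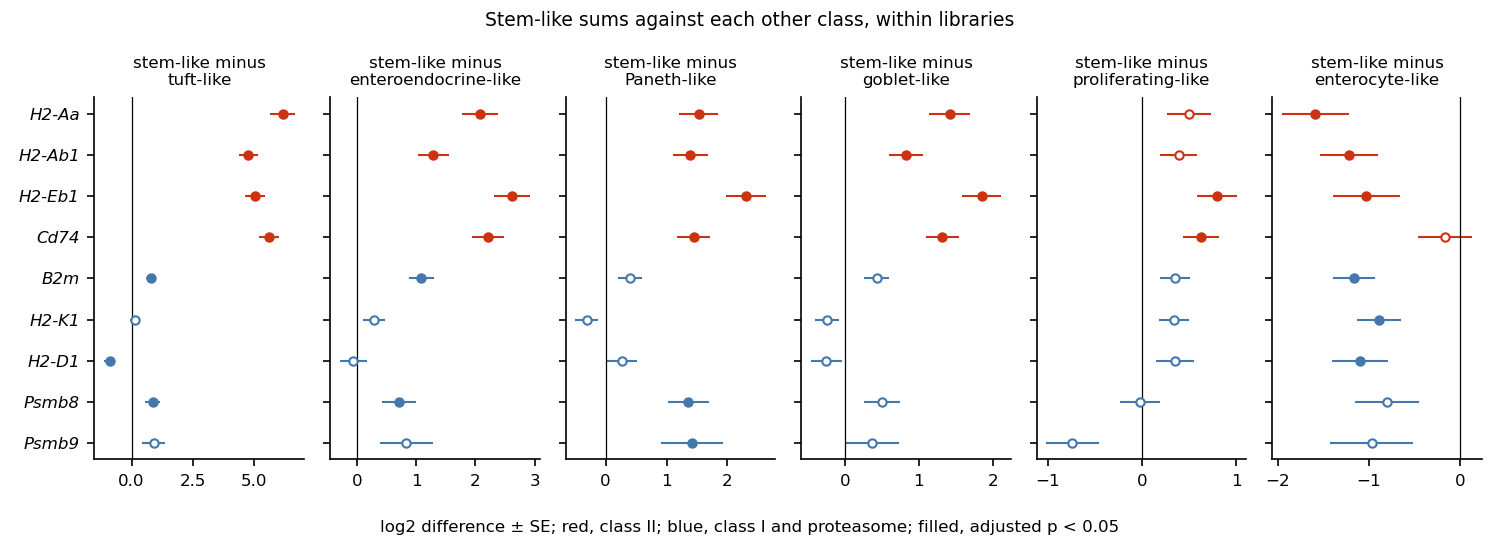
Log2 differences (horizontal axes, each with its own range) of stem-like cells against each other class within libraries, for the 9 genes. Bars are standard errors, red points the class II genes and blue points the others, and filled points have an adjusted p below 0.05. The class II genes lie above 0 against every class except enterocyte-like cells.

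Enterocyte-like cells, the absorptive class, had more of 6 of the 9 genes than stem-like cells, with 37.6% of all genes called (16.4% lower in stem-like cells). H2-Aa fell by 1.59 ± 0.37 (SE) on the log2 scale in stem-like against enterocyte-like cells, H2-Ab1 by 1.22 ± 0.32, B2m by 1.16 ± 0.23, H2-D1 by 1.10 ± 0.31, H2-Eb1 by 1.03 ± 0.37 and H2-K1 by 0.89 ± 0.24. Cd74 had -0.16 ± 0.3 (edgeR adjusted p = 0.73). Markers of lymphocytes moved with this difference: their summed list, 10 of 12 genes in the files and none of those at 0, was at 0.63 in enterocyte-like and at 0.076 in stem-like cells, with 0.022 to 0.11 in the other named classes. Without the cells that held 3 or more leukocyte transcripts the same 6 genes were called, with H2-Aa at -1.57 and H2-Ab1 at -0.99. Only 4 libraries had at least 3 enterocyte-like cells, with 6, 3 and 8 in 5-day replicates 1, 2 and 3 and 10 in the 3-week library with the non-traced CD24+ label. With classes by the share of marker transcripts 3 genes were called, and H2-Aa (-0.71), H2-Ab1 (-0.13) and H2-Eb1 (-0.06) were not. H2-Eb1 lost its call without 5-day replicate 1 (adjusted p = 0.12) or 3 (0.11).

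Between stem-like and proliferating-like cells few genes passed the test. Of the 9 genes 2 were called, H2-Eb1 at 0.80 ± 0.21 (edgeR adjusted p = 0.015) and Cd74 at 0.63 ± 0.19 (0.035), and 3.87% of all genes were (1.38% higher). These calls were not stable: H2-Eb1 had adjusted p = 0.083 without 5-day replicate 1 and 0.051 without 8-week traced CD24+ replicate 3. Cd74 lost its call without 5-day replicate 1, 2, 3 or 4 or any of the 3 8-week traced CD24+ libraries (adjusted p 0.054 to 0.17).

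The second comparison set traced against non-traced CD24+ cells at 8 weeks, cells that do or do not descend from the marked stem cells. H2-Eb1 was at 3.7, 3.74 and 3.77 in traced and at 1.62 and 2.69 in non-traced libraries, so the groups did not overlap. H2-D1 was at 5.7, 7.69 and 6.77 against 10.5 and 9.95, again without overlap. Groups this small separate easily, and the share of all genes without overlap was not counted. None of the 9 genes passed the test, and 4.23% of the 8762 genes tested did. The nearest were H2-Eb1 (log2 difference 0.81 ± 0.21, edgeR adjusted p = 0.052), H2-D1 (-0.61 ± 0.16, 0.059) and H2-Aa (0.66 ± 0.21, 0.12), and at an unadjusted p below 0.05 edgeR counted 1583 of all genes. DESeq2 also called none of the 9. The combined table names replicate 1 of each group apart from the others, whose names carry II, and what that marks is not given in the sources used here. Within the sets without II, H2-Eb1 was at 3.7 against 1.62 and H2-D1 at 5.7 against 10.5, and within the sets with II they were at 3.74 and 3.77 against 2.69 and at 7.69 and 6.77 against 9.95.

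The makeup of the libraries moved with this contrast. Tuft-like cells had the highest mean H2-D1 and the lowest mean class II level of the classes. They numbered 40 and 31 in the non-traced libraries and 15, 14 and 14 in the traced ones. Stem-like cells numbered 1 and 2 against 7, 12 and 9, and proliferating-like cells 0 and 2 against 20, 10 and 5. The part of this makeup in the library differences was not tested as such, but the classes were compared on their own. In tuft-like cells H2-D1 had a log2 difference of -0.42 ± 0.16 (edgeR adjusted p = 0.75) and 0 of the 4 genes tested were called (0.0319% of all genes). In enteroendocrine-like cells 0 of 8 were called (0.162% of all genes), with H2-Aa at 0.62 ± 0.47 and H2-D1 at -0.37 ± 0.30. In Paneth-like cells 0 of 8 were called (0.387% of all genes), and the class II genes pointed down in traced cells: H2-Aa had -1.73 ± 0.42 (edgeR adjusted p = 0.061) and H2-Ab1 -1.35 ± 0.39 (0.17). At an unadjusted p below 0.05 edgeR counted 148, 257 and 193 of all genes in these 3 tests.

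The levels of Paneth-like cells differed between the non-traced libraries. The summed class II level of Paneth-like cells was 15.7 in 8-week non-traced CD24+ replicate 2 and 3.43 in replicate 1, and 3.18, 5.27 and 2.7 in the traced libraries. Of the 282.7 class II transcripts of non-traced replicate 2, 35.9% came from 1 of 9 cells, and without that cell the level was 11.1. Without non-traced replicate 1, 4 of the 9 genes were called, and without non-traced replicate 2 none. Each of these fits has a single non-traced library, which is assumed to vary like the traced ones.

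The third comparison followed traced cells from 5 days to 8 weeks. Time, the CD24 gate and the sex of the mice changed together between these groups and cannot be told apart. The makeup changed as well: tuft-like cells numbered 0 in every 5-day library and 15, 14 and 14 in the 8-week traced CD24+ libraries, and enteroendocrine-like cells 0 to 2 against 21, 19 and 17. H2-D1 was 2.6-fold, H2-Eb1 2.23-fold, H2-Ab1 2.07-fold and H2-Aa 2.03-fold higher in the 8-week traced CD24+ libraries. In all, 7 of 9 genes were called, 6 higher and Psmb9 lower, against 37.1% of the 8514 genes tested (18.7% higher, 18.4% lower). H2-D1 rose by 1.38 ± 0.12 (edgeR adjusted p = 1.8e-06), H2-K1 by 0.55 ± 0.12 and Psmb8 by 0.47 ± 0.14 on the log2 scale, and Psmb9 fell by 0.51 ± 0.17. Cd74 (0.28 ± 0.26) and B2m (-0.12 ± 0.13) did not pass. Psmb8 lost its call without 5-day replicate 2 or 4 or 8-week traced CD24+ replicate 2 or 3 (adjusted p 0.05 to 0.09), and Psmb9 without 5-day replicate 1 or 8-week replicate 1 or 3, with DESeq2 (0.061) and with library totals (0.065). Without tuft-like and enteroendocrine-like cells, a setting added after the data were seen, H2-D1 had 1.21 and H2-Eb1 1.61, 6 genes were called, all higher, and Psmb9 (-0.15, edgeR adjusted p = 0.58) was not.

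Class II genes were also higher at 8 weeks within the stem-like class. The summed class II level of stem-like cells, over all their counts, was 14, 11.3, 8.25, 7.66 and 8.34 in the 5-day libraries and 29.6, 31.5 and 36.5 in the 8-week traced CD24+ libraries. It was 24.2 in the ungated 8-week traced library. All 4 8-week libraries lay above all 5 5-day libraries. This contrast and the next were added after the levels by class had been seen, so their counts describe these libraries. H2-Aa was 3.51-fold, H2-Eb1 3.49-fold, H2-Ab1 2.94-fold, Psmb8 2.59-fold, H2-D1 2.1-fold, H2-K1 1.77-fold and Cd74 1.76-fold higher at 8 weeks. In all, 7 of 9 genes were higher, against 18% of the 2307 genes tested (9.23% higher).

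B2m in stem-like cells was at 9.07 to 11.2 at 5 days and at 11.5 to 13.8 at 8 weeks, and its log2 difference was 0.34 ± 0.13 (edgeR adjusted p = 0.076). Psmb9, which fell over whole libraries, had 0.30 ± 0.29 here. Cd74 lost its call without 5-day replicate 4 or 5 or 8-week traced CD24+ replicate 1 or 2 (edgeR adjusted p 0.05 to 0.088).

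Proliferating-like cells showed the same set of higher genes. Their summed class II level was 7.69, 5.96, 5.77, 5.68 and 7.46 at 5 days, and 20.5, 24.6 and 27.7 in the 8-week CD24+ libraries with 19.4 in the ungated one. H2-Eb1 was 4.29-fold, H2-Aa 3.73-fold, H2-Ab1 3.25-fold, H2-D1 2.43-fold, Psmb8 2.38-fold, Cd74 2.07-fold and H2-K1 1.51-fold higher at 8 weeks. These 7 of 9 genes were called, against 16.4% of the 4158 genes tested (7.91% higher). H2-K1 lost its call without 8-week traced CD24+ replicate 1 (edgeR adjusted p = 0.052). The ungated 8-week library, at 24.2 in stem-like and 19.4 in proliferating-like cells, lay above every 5-day library. The labels of these libraries name no CD24 gate, but time and sex changed together between them, with 1 library at 8 weeks. The part of the gate was not tested.

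**Figure D5:**
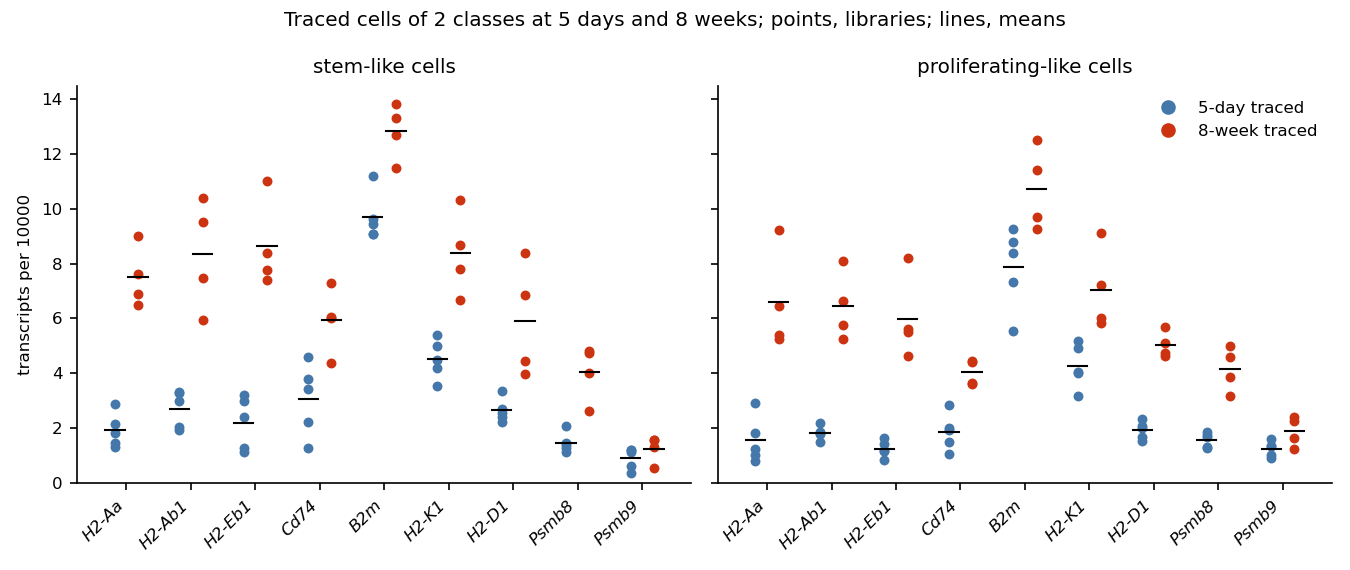
Levels of the 9 genes (transcripts per 10000, vertical axis) in stem-like and in proliferating-like cells of traced libraries at 5 days (blue) and 8 weeks (red). Points are libraries and lines means. The times do not overlap for H2-Aa, H2-Ab1, H2-Eb1, H2-K1, H2-D1 or Psmb8 in either class, and they overlap for Psmb9. How many of all genes separate the times in this way was not counted.

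Different clusters carried the classes at the 2 times. Of the stem-like cells 97.7% at 5 days lay in cluster 2, and 90.4% of those of traced libraries at 8 weeks in cluster 5. The stem markers raised against other cells of the same libraries differed in part. Olfm4 and Ascl2 were raised in cluster 2 only, and Lgr5, Rgmb and Tnfrsf19 in cluster 5 only. Smoc2, Gkn3, Axin2, Slc12a2 and Cdca7 were raised in both, so the class may not hold the same cells at both times. The class II sum was 9.46 ± 2.1 in cluster 2 at 5 days (n = 5) and 31 ± 5.1 in cluster 5 at 8 weeks (n = 4). The 8-week cells in cluster 2 numbered 5, and the 1 library with at least 3 of them was at 20.3. Of the proliferating-like cells 76.4% at 5 days lay in cluster 4 and 78.9% at 8 weeks in cluster 6. In cluster 7, which held both times, the sum was 4.77 ± 0.99 at 5 days (n = 5) and 11.6 in 1 library at 8 weeks. H2-Eb1 and H2-Ab1 were among the leading genes of cluster 5, although clustering did not use them. Median depth also differed, at 5798 transcripts per stem-like cell at 5 days and 9552 at 8 weeks. At equal depth, class II transcripts were found in 87.4% of stem-like cells at 5 days (78.5 to 93.5%) and in 100% of the 55 stem-like cells of all 8-week libraries (93.5 to 100%). Without thinning the shares were 97.7% and 100%.

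Whether stem-like and Paneth-like cells differed more at 8 weeks than at 5 days was tested as an interaction. H2-Eb1 had 1.79 ± 0.71 (edgeR adjusted p = 0.15), Psmb8 1.86 ± 0.83 (0.22) and H2-Aa 1.68 ± 0.71 (0.19) on the log2 scale, positive where the difference was larger at 8 weeks, and H2-D1 had -0.66 ± 0.52. None of the 8 genes tested was called, against 3.24% of all genes, and at an unadjusted p below 0.05 edgeR counted 198 of 1143.

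The other genes of the pathway moved in part. As above, 18% of all genes were called between the times in stem-like cells (9.23% higher) and 16.4% in proliferating-like cells (7.91% higher). Of 17 class II accessory genes 15 were in the files and 4 were tested in stem-like cells between the times. H2-DMa, which helps to load peptide on class II, rose by 1.58 ± 0.30 at 8 weeks (edgeR adjusted p = 0.00053), and 3 did not pass. In proliferating-like cells H2-DMa rose by 1.61 ± 0.28, 1 of 5 tested. Of the 12 class I accessory genes 7 were tested in stem-like cells and 1 rose, Pdia3, a chaperone of the loading complex, by 1.24 ± 0.21. In proliferating-like cells 3 of 10 rose: Tapbpl, which edits class I peptides, by 2.32 ± 0.36, Tap1, a subunit of the peptide transporter, by 1.09 ± 0.34, and Pdia3 by 0.98 ± 0.19. The non-classical heavy chain H2-T23 rose by 1.14 ± 0.24 in stem-like and by 1.22 ± 0.26 in proliferating-like cells, 1 of 1 and 1 of 2 heavy chains tested.

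Of the constitutive proteasome subunits, Psmb5 and Psmb6, whose places Psmb8 and Psmb9 can take, did not pass in stem-like cells. Psmb7, which neither of those members replaces, fell by 0.82 ± 0.24. Of 32 interferon genes 5 were tested in stem-like cells and 2 rose: Irf8 by 1.18 ± 0.30 and Irf1 by 0.78 ± 0.24, both transcription factors. In proliferating-like cells 2 of 7 rose, Irf8 by 0.85 ± 0.23 and Irf1 by 0.64 ± 0.21. The other genes of this list were too low to be tested in these classes. None of the 5 costimulation genes was tested in any comparison.

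Over whole libraries between the same times, 4 of 11 class II accessory genes rose and 3 fell, where 18.7% of all genes rose and 18.4% fell. The median log2 difference was 0.55 over these 11 genes and 0 over all genes. Ciita, the master regulator of class II transcription, rose by 1.70 ± 0.26, and the endosomal proteases Lgmn and Ctsl by 1.63 ± 0.25 and 1.21 ± 0.23. The protease Ctss, which cuts the invariant chain, fell by 0.95 ± 0.17, and the thiol reductase Ifi30 fell by 0.72 ± 0.15. All 3 constitutive subunits fell, by 0.32 ± 0.11 to 0.85 ± 0.15. Of the 11 class I accessory genes 2 rose, Tapbpl and Pdia3, and 4 fell. Of the 5 other heavy chains 2 rose and 3 fell, from H2-Q4 at 2.06 ± 0.33 to the Fc receptor Fcgrt at -1.79 ± 0.27. Of 18 interferon genes tested 1 rose, the receptor kinase Jak1 (0.89 ± 0.15), and 1 fell, the receptor chain Ifngr1 (-0.69 ± 0.16). With 37.1% of all genes called in this comparison, the counts of class I accessory genes (6 of 11) and of interferon genes (2 of 18) lay on either side of that share.

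Between stem-like and secretory-like cells, with 20.9% of all genes higher, 1 of 2 class II accessory genes was higher, the protease Ctsh (0.82 ± 0.28). Of 8 class I accessory genes 3 were higher: the proteasome activators Psme1 (0.78 ± 0.16) and Psme2 (0.56 ± 0.17) and the third immunoproteasome subunit Psmb10 (0.63 ± 0.20). Calr, a chaperone of the endoplasmic reticulum, was lower (-0.48 ± 0.17). Of 4 interferon genes 2 were higher, the receptor chain Ifngr1 (1.16 ± 0.29) and Irf1 (0.77 ± 0.23). Neither of the 2 other heavy chains nor any of the 3 constitutive subunits passed. Between traced and non-traced CD24+ cells 4.23% of all genes were called, and of these lists 1 gene, among 20 interferon genes tested. It was Irf7, a regulator of the interferon response, which fell by 1.18 ± 0.24 in traced cells (edgeR adjusted p = 0.019). None of the 11 class II accessory, 11 class I accessory, 6 other heavy chain and 3 constitutive subunit genes tested was called.

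Over 56 sums of a class in a library, the 4 class II genes followed each other, with Spearman's rho of 0.82 (H2-Ab1 and Cd74) to 0.90 (H2-Aa and H2-Eb1). H2-K1 followed H2-D1 at 0.80, and Psmb8 followed Psmb9 at 0.61. Cd74 and H2-D1 were unrelated at 0.01. B2m lay closer to the class II genes (0.60 to 0.70) than to H2-D1 (0.39). Among the 3683 genes with a mean of at least 0.5, those most like the class II sum were H2-DMa (0.85), Pigr, the receptor that carries IgA through the epithelium (0.81), Sectm1b (0.80), 2210407C18Rik (0.80), Prdx1, a peroxidase (0.80), and Irf8 (0.76). The genes most like the class I sum were the tight junction gene Cldn7 (0.72), Ceacam1 (0.72), the brush border gene Vil1 (0.70), and Pvrl2, Slc25a20 and Lrrc58 (0.65 each). The sums share libraries, and the values describe these data only.

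The summed markers of professional antigen presenting cells were low beside these levels. Of 15 listed myeloid and dendritic genes 12 were in the files, with a sum of 0.28 to 0.83 over the named classes. Over all kept cells Itgax had 0 transcripts, Csf1r, C1qc, Aif1 and Ccr7 had 1 each, and Cd68 and C1qa had 12 each. The others were seen more often: Cd14 had 206 transcripts in 138 cells, Lyz2 100 in 39, Xcr1 87.2 in 75, Cd83 81.2 in 69 and Itgam 51.1 in 44. Among lymphocyte genes Cd3e had 1 and Cd8b1 50.1 in 45 cells, and among B cell genes Cd79b had 69.5 in 48. In stem-like cells the summed myeloid and dendritic list was at 0 to 0.78 at 5 days and at 0.75 to 0.94 at 8 weeks, beside class II sums of 7.66 to 14 and 24.2 to 36.5. Its part in the difference between the times was not tested. One cell, in 8-week non-traced CD24+ replicate 1, had 45 transcripts of B cell markers, none of Epcam and 67.4 of class II genes. It was in no named class. Without the 71 cells that held 3 or more leukocyte transcripts, 3 of the 9 genes were called between traced and non-traced CD24+ cells in place of 0, with H2-Eb1 at 1.17 (edgeR adjusted p = 0.02) and H2-D1 at -0.69 (0.024).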

How the data were processed

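CEL-seq libraries of single cells were sequenced on HiSeq and NextSeq instruments, per the labels' protocols. Reads were aligned with BWA 0.6.2-r126 to mm10, per the submitters' processing notes. The authors deposited 1 table per library of 96 wells that holds expected counts, estimates of the transcripts of each gene and cell that were corrected for molecular barcodes used more than once, as the deposited values themselves show. Spike-ins were removed, cells with at least 3000 transcripts were kept, and counts were summed per library, or per class and library with at least 3 cells, and rounded.

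Each cell's counts were divided at random into equal parts (share 0.5). One part, without the 9 genes and the pathway lists, was clustered with scanpy 1.11.5 (2000 variable genes, 30 components, 10 neighbours, resolution 1). A cluster was named where at least 3 markers of a type were raised and at least 1 was among its 10 leading genes. Clusters drawn almost wholly from 1 library were left unnamed. The class comparisons used the other part, with the library as a block. No doublet caller was run. Sums were tested with edgeR 4.0.16 in R 4.3.3 (TMM factors, quasi-likelihood test, Benjamini-Hochberg adjustment over all genes tested, threshold 0.05), which was checked on simulated counts.

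The members and lists were chosen with earlier results of these data known, and the comparisons of times within classes were added after the levels by class had been seen. Named genes were all 9 members, up to 5 genes past the threshold in each list, and the 6 genes most like each sum. Alternatives were DESeq2 1.42.0, RLE factors, library totals, no filter on low counts, other cell minimums (1500 and 5000), other resolutions (0.5 and 2), classes by marker share, all counts, single times, batch and replicate blocks, and leaving out libraries or cells; RLE factors, library totals, the removal of single top cells and fits without tuft-like (and, between times, enteroendocrine-like) cells were chosen after seeing the data. Same-numbered libraries deviated together with correlations from -0.0276 to 0.337, and the numbers were not taken to pair libraries.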

Additional observations from a re-analysis of the deposited data

Results flagged for a closer look

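The level of B2m in stem-like cells of 5-day replicate 1, 11.2 transcripts per 10000, lay far from the other 4 5-day libraries (9.07 to 9.64), with a gap of 0.732 of the whole range. It was the only 1 of 60 groups of libraries in which a single value stood apart in this way, and chance gives about 1 in 20.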

How the results depend on the processing

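Counts are of the 9 genes called. Between traced and non-traced CD24+ cells 0 became 3 with no filter on low counts, 1 with library totals, 1 with at least 1500 and 1 with at least 5000 transcripts per cell, 3 without cells with leukocyte markers, and 0 to 2 without single libraries (2 without non-traced replicate 2, H2-Eb1 at 1.22 and H2-Aa at 1.10; the lone non-traced library is then assumed to vary like the traced ones). In Paneth-like cells 0 became 3 with no filter, 1 with the batch block, 4 with 1500 transcripts, 4 with classes by marker share, and 0 to 4 without single libraries. In tuft-like cells it became 1 with the replicate block and 0 to 1 without single libraries. With the 5-day libraries only, stem-like against secretory-like cells gave 1, against goblet-like cells 1 and against Paneth-like cells 0. Against enterocyte-like cells classes by marker share gave 3. Stem-like against proliferating-like cells gave 0 with no filter, library totals, 1500 or 5000 transcripts, resolution 0.5, 5-day only, 8-week only and 8-week only without tuft-like cells. The interaction gave 3 with library totals and 2 with all counts. Without single libraries the counts were 5 to 7 (8-week against 5-day and secretory-like), 5 to 8 (enterocyte-like), 5 to 6 (enteroendocrine-like, Paneth-like), 4 to 6 (goblet-like), 6 to 8 (tuft-like), 0 to 2 (proliferating-like), 6 to 7 (both classes between times) and 0 to 0 (interaction). H2-K1 in stem-like against secretory-like cells, not called, turned to 0.13 with no filter, 0.16 with library totals, 0.01 without 5-day replicate 3, 0.01 without the library labelled 3-week non-traced and 0.06 without 8-week traced CD24+ replicate 1, within -0.17 to 0.06 over all libraries left out. With 5-day libraries only H2-D1 turned to 0.40 and Psmb8 to -0.35. The cause of these changes was not tested. With the replicate block H2-Eb1 had 0.81 between traced and non-traced cells (edgeR adjusted p = 0.055), 6 genes were called between 8-week and 5-day libraries (Psmb8 was lost, 0.059) and 7 within each class between times. Of single values, 1583 kept direction and side of the threshold, 110 lost and 14 gained the call, and 8 turned, B2m between 8-week and 5-day libraries among them (0.07 without tuft-like and enteroendocrine-like cells).

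Over all genes, the number called ranged from 55 (without non-traced replicate 1) to 811 (no filter) around 371 for traced against non-traced cells, 3 to 42 around 10 in Paneth-like, 0 to 14 around 1 in tuft-like and 3 to 138 (replicate block) around 5 in enteroendocrine-like cells. It ranged from 271 to 698 around 416 and 363 to 933 around 681 between times in stem-like and proliferating-like cells. For stem-like cells it ranged from 134 to 1820 around 983 (secretory-like), 746 to 1789 around 982 (enterocyte-like), 710 to 1722 around 891 (enteroendocrine-like), 184 to 1272 around 702 (goblet-like), 89 to 1980 around 809 (Paneth-like), 43 to 218 around 101 (proliferating-like), 883 to 2078 around 1079 (tuft-like) and 11 to 199 around 37 (interaction). The share of called genes that were higher moved from 56.4% to 35.1% with RLE factors against enterocyte-like cells (median -0.21), from 53.9% to 35.5% against enteroendocrine-like, from 54.1% to 43.9% against tuft-like and from 46.1% to 29.2% against Paneth-like cells. With library totals it moved to 68.3% from 51.2% and to 63.7% from 48.3% between times in stem-like and proliferating-like cells, to 36.2% against enteroendocrine-like, 42.7% against tuft-like and 19.2% (from 35.6%) against proliferating-like cells, to 0% from 10% in traced Paneth-like cells, and to 94.5% from 40.5% in the interaction (median 0.64). Depth limits Psmb9, which was not tested in several classes.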
